A study of Mus musculus with 29 samples.

Results

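Intestinal organoids carrying a deletion of both Rnaseh2b and Trp53 were compared with control organoids across all genes. The members were chosen by title: 3 libraries titled H2Bp53DKO (replicates 1, 2 and 3) against 3 titled LW50_WT (A, B and C), 6 of the 29 RNA libraries of the series. The series holds mouse crypts, tissue and organoids from the C57BL/6 strain. The double-deleted organoids carry the genotype label H2B/p53dIEC and are called H2Bp53dIEC here. The control organoids are titled wild type and labelled H2B/p53flox/flox, whereas the series' design text gives H2Bfl/fl for control organoids, so whether the controls carry floxed Trp53 alleles is not settled by the labels. H2B is taken here to mean Rnaseh2b, after the title of the series, and p53 to mean Trp53. Another group of 3 organoid libraries, H2BdIEC (A, B and C), shared the fit and is given beside the comparison. The labels state no age, sex, gut segment or treatment for any organoid, and do not tie the 3 libraries of a genotype to separate mice. The p-values therefore rest on differences among libraries of a group that may be technical only, and a line or culture batch of the H2Bp53dIEC organoids cannot be told apart from their genotype.

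Organoids are epithelial cultures grown from intestinal crypts, in which stem cells divide and give rise to enterocytes and to Paneth, goblet, enteroendocrine and tuft cells. RNase H2 is the enzyme that cuts at ribonucleotides built into genomic DNA and so starts their removal, and its B subunit is needed for a stable complex. p53 is the transcription factor that answers DNA damage by inducing genes of cell cycle arrest, cell death and repair, and it also induces its own inhibitor Mdm2. The comparison of H2Bp53dIEC with control organoids asks how the epithelium differs when ribonucleotide removal and p53 are both lost.

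Poly(A)-selected, strand-specific libraries held 13549741 to 15844236 gene counts in H2Bp53dIEC, 16803119 to 21386586 in controls and 5774771 to 15136734 in H2BdIEC organoids. Mitochondrial genes took 1.40% to 1.66% of counts in the H2Bp53dIEC and control libraries. Libraries of the H2Bp53dIEC group were closer to each other than control libraries were (chi-square per degree of freedom over genes 1.93 to 2.69 against 7.78 to 7.97). Levels are CPM, read counts scaled to a common library size with TMM factors, with means given ± SD (n = 3). Log2 fold changes are H2Bp53dIEC minus control ± SE. Epithelial markers were high in both groups: Epcam stood at 1409 ± 18.5 against 1290 ± 56.2 CPM and Cdh1 at 1308 ± 38.7 against 1361 ± 35.5 CPM. Markers of other tissues were low, with 1 of 11 mesenchymal, 0 of 6 endothelial, 2 of 12 immune and 3 of 7 neural markers passing the filter on low counts. Of these 6 tested markers only Tubb3, a neuronal tubulin, was called, at 2.81 ± 1.06 against 0.954 ± 0.270 CPM (log2 1.54 ± 0.41, edgeR adjusted p = 0.0115), and it lost the call without H2Bp53dIEC replicate 2. Cd3e, Cd8a, Adgre1 and Tyrobp had no count in either group.

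Differences were spread over many genes and ran in both directions. Of 15701 genes tested, 5230 were called (33.3%) at an edgeR adjusted p under 0.05, 2621 higher (16.7%) and 2609 lower (16.6%). The shares higher and lower are the background for each list count given below. The lists and their members were chosen with earlier results of these data known. A list count above that background is therefore not independent support for a change of the class. Most of these differences were small: the quartiles of the log2 fold change over all genes were -0.24 and 0.23, with a median of -0.0044. A test against a 2-fold change called 232 genes (1.48%), 134 higher (0.853%) and 98 lower (0.624%). The 3 libraries of one group lay wholly above or below the 3 of the other for 8549 genes, or 54.4% of those tested, so a gap between the groups is common here.

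Both deleted genes were low in every H2Bp53dIEC library. Trp53 (chromosome 11, 69580359 to 69591873 on GRCm38) stood at 9.96, 11.5 and 11.7 CPM in H2Bp53dIEC replicates 1, 2 and 3 and at 107, 98.3 and 115 CPM in control replicates A, B and C. The groups were far apart, with a log2 fold change of -3.28 ± 0.13 (edgeR adjusted p = 5.79e-08). Rnaseh2b stood at 2.15, 1.72 and 1.08 CPM against 18.3, 14.8 and 16.6 CPM in controls (-3.30 ± 0.20, edgeR adjusted p = 3.26e-07). Some reads of both genes were still counted. Reads are summed over all exons of a gene, including any that a deletion leaves in place. In H2BdIEC organoids Rnaseh2b lay between the groups at 4.97, 7.05 and 5.47 CPM, and its level in H2Bp53dIEC was lower than there (log2 -1.82 ± 0.23, edgeR adjusted p = 0.000147).

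The partners of RNase H2B were not called. Rnaseh2a, the catalytic subunit, stood at 44.3, 43.0 and 43.9 against 43.1, 43.7 and 46.5 CPM, and Rnaseh2c, the third subunit, at 60.9, 54.5 and 56.1 against 42.2, 45.7 and 54.5 CPM. Neither passed the test (log2 -0.02 ± 0.07 and 0.27 ± 0.21), and both pairs of groups overlapped. Rnaseh1, which removes RNA from longer RNA-DNA hybrids, and Top1, the topoisomerase that can cut at ribonucleotides in place of RNase H2, also missed the test (log2 0.30 ± 0.16 and -0.21 ± 0.09). Rnaseh2c and Rnaseh1, as higher, and Top1, as lower, were called without H2BdIEC replicate A and in a fit to the 6 compared libraries alone. Of the 12 tested genes of ribonucleotide removal and its later steps, 4 rose and 1, Rnaseh2b itself, fell, against 16.7% and 16.6% of all genes. The 4 that rose were Pole, the leading-strand polymerase (82.3 ± 1.5 against 59.0 ± 1.73 CPM, log2 0.48 ± 0.06), the exonuclease gene Exo1 (0.68 ± 0.09), the flap endonuclease gene Fen1 (0.68 ± 0.10) and the ligase gene Lig1 (0.48 ± 0.08). DNA replication and S phase genes rose as well, 23 of 28 tested with a median of 0.38. A change particular to ribonucleotide removal was not tested.

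Genes that p53 induces were lower in H2Bp53dIEC organoids. Among 15 tested targets of cell cycle arrest and RNA control, 9 fell and 0 rose, with a median log2 fold change of -0.45 against -0.0044 over all genes, and 5 of them fell by more than 2-fold. Cdkn1a, the p21 inhibitor of cyclin-dependent kinases, stood at 66.3, 72.4 and 70.4 CPM in H2Bp53dIEC and 248, 329 and 303 CPM in controls (-2.07 ± 0.10, edgeR adjusted p = 1.02e-07). Zmat3, which encodes an RNA-binding regulator of splicing, stood at 28.3, 32.7 and 31.2 against 96.3, 116 and 102 CPM (-1.77 ± 0.09). Ccng1, the gene of cyclin G1, fell from 301 ± 25.2 to 84.3 ± 4.05 CPM on average (-1.84 ± 0.10), and Psrc1, a microtubule-binding protein gene, from 25.4 ± 2.97 to 8.06 ± 0.696 CPM (-1.66 ± 0.11). Groups did not overlap for any of these 4 genes, as for 54.4% of all genes tested. Sesn2 and Gadd45a, stress-induced genes, fell by less (log2 -1.36 ± 0.12 and -0.79 ± 0.07). The long noncoding RNA Trp53cor1, named after its value was seen, went from 2.28 ± 0.346 to 0.192 ± 0.101 CPM.

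Among 13 tested p53 targets of cell death, 9 fell and 1 rose (median -0.37). Eda2r, a death receptor of the TNF receptor family, was nearly lost: 0.123, 0.0616 and 0.432 CPM in H2Bp53dIEC against 8.11, 8.34 and 8.16 in controls (-5.34 ± 0.28, edgeR adjusted p = 1.31e-07). Bax, which permeabilizes mitochondria, stood at 33.8, 30.9 and 32.4 against 61.3, 61.5 and 71.4 CPM (-1.0 ± 0.14). Tnfrsf10b, another death receptor gene, Trp53inp1, Pmaip1 and Aen fell by 0.93, 0.75, 0.68 and 0.37 on the log2 scale, and Aen lost the call without H2Bp53dIEC replicate 3. Dapk1, a death-associated kinase gene, was the member that rose (log2 1.03 ± 0.32). It lost the call without any 1 of the H2Bp53dIEC replicates, control replicate B or control replicate C. Fas, the gene of a death receptor, did not pass the test (log2 0.27 ± 0.34). Dapk1 and Fas were named after their values were seen.

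Of 24 tested genes listed as p53 targets of metabolism and stress, 13 fell and 2 rose (median -0.30). The members, Ano3 and Inka2 among them, were chosen with earlier results of these data known. Their fall is therefore not independent support for a loss of p53 target expression. Phlda3, which encodes a repressor of AKT, stood at 0.800, 1.54 and 1.37 CPM in H2Bp53dIEC and 26.4, 31.8 and 30.9 in controls (-4.59 ± 0.27, edgeR adjusted p = 3.14e-07). Gdf15, a secreted stress cytokine gene, went from 42.0 ± 2.54 to 4.44 ± 0.816 CPM (-3.23 ± 0.22), and Inka2 from 3.33 ± 0.378 to 0.113 ± 0.108 CPM (-4.84 ± 0.39). Dglucy, a glutamate metabolism gene, Ephx1, an epoxide hydrolase gene, and Polk, a translesion polymerase gene, fell by 1.39, 1.18 and 1.10 on the log2 scale. Ano3 had 0 counts in all 3 H2Bp53dIEC libraries and 33 counts over the controls, which makes it at least 9.39-fold lower against a floor of 3 counts over the group. The list's median stayed at -0.30 with Ano3 and Cd80, the other gene without a count there, set at that bound. These 2 genes were named for their counts of 0. Ppm1d, a phosphatase gene that restrains p53, and Tap1 rose by log2 0.32 ± 0.09 and 0.30 ± 0.11, small differences. Each lost its call without H2Bp53dIEC replicate 1 or 2, Ppm1d also without control replicate B, and Tap1 also without H2Bp53dIEC replicate 3, control replicate A or control replicate C.

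Genes around p53 itself differed in both directions. Mdm2, the ubiquitin ligase that degrades p53 and is also its target, stood at 42.6, 42.5 and 40.2 against 57.9, 58.3 and 54.5 CPM (-0.45 ± 0.08), and its partner Mdm4 fell as well (-0.49 ± 0.16). Mdm4 lost its call without any 1 of the H2Bp53dIEC replicates, control replicate A or control replicate B. Cdkn2a, which encodes p16 and the Mdm2 inhibitor ARF, was the largest increase in this list: 2.28, 2.28 and 2.09 CPM in H2Bp53dIEC against 0.120, 0 and 0.179 CPM in controls and 0, 0.151 and 0.330 CPM in H2BdIEC (4.47 ± 0.50, edgeR adjusted p = 3.83e-05). Its level was low even where it was highest, and Cdkn2a passed the filter on low counts through the H2Bp53dIEC libraries alone. A gene count does not separate the p16 and ARF transcripts. Of 10 tested genes in the list, 3 rose and 5 fell, against 16.7% and 16.6% of all genes. The list covers p53 itself, so the deleted gene Trp53 is among those that fell. Mdm2 is counted among the arrest targets as well. The count of 3 was 1 with no filter on low counts, without H2Bp53dIEC replicate 1, without H2Bp53dIEC replicate 2 and without control replicate B.

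**Figure D1:**
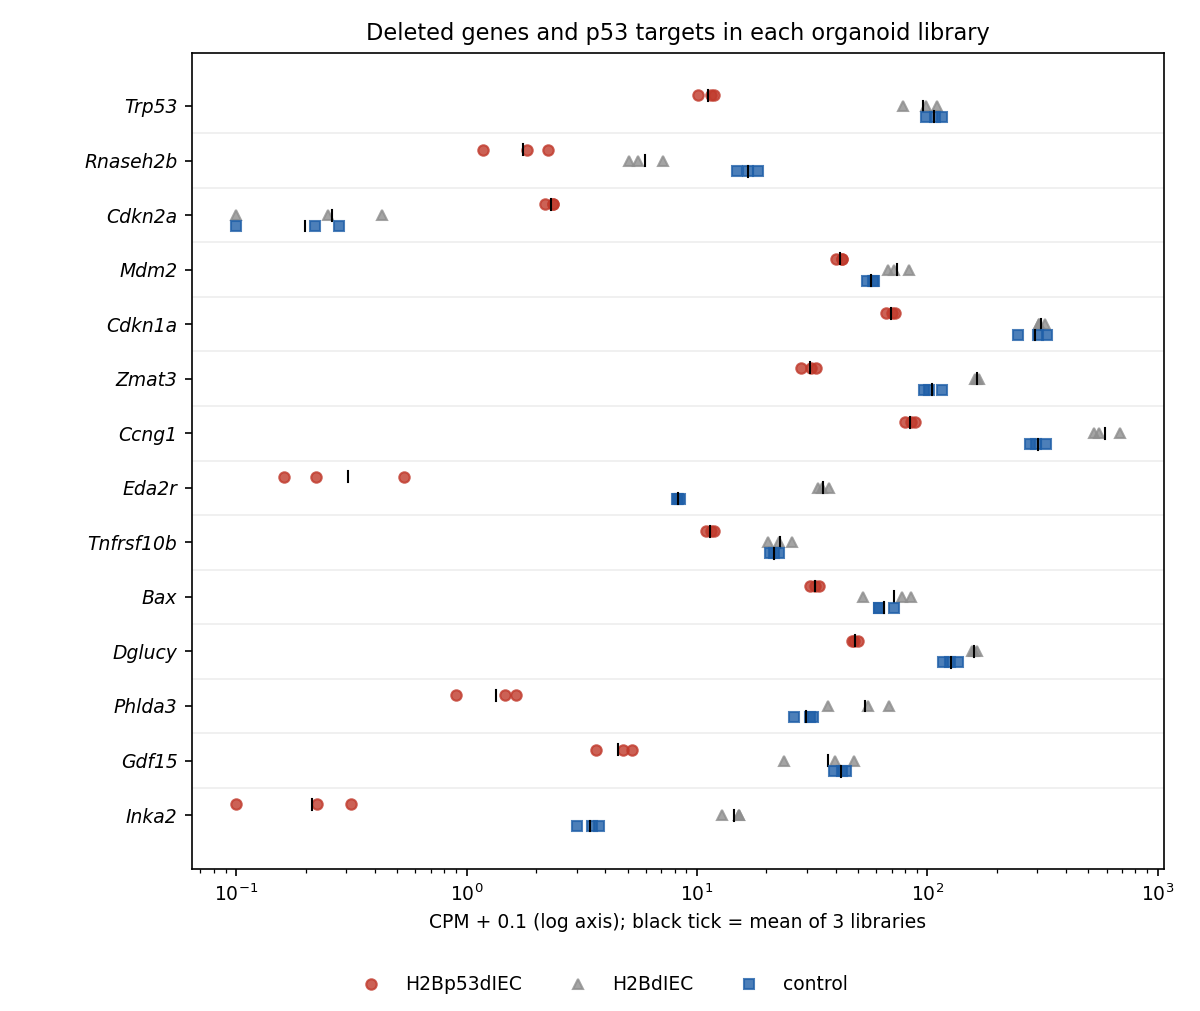
CPM plus 0.1 on a log axis of Trp53, Rnaseh2b and 12 p53-related genes in each of the 9 organoid libraries, with a black tick at each group's mean of 3 libraries. Trp53, Rnaseh2b and all p53-related genes shown except Cdkn2a lie lower in the 3 H2Bp53dIEC libraries than in the 3 controls, and Cdkn2a lies higher.

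Most p53 targets also stood lower in H2Bp53dIEC than in H2BdIEC organoids. In the contrast of H2Bp53dIEC with H2BdIEC, which shares the H2Bp53dIEC libraries with the comparison to controls, 4601 of 15701 genes were called (29.3%), 13.9% higher and 15.4% lower. There 13 of 15 arrest targets, 10 of 13 death targets and 15 of 24 stress targets were called lower. For several targets the H2BdIEC organoids lay above the controls: Eda2r stood at 37.3, 33.5 and 34.9 CPM, Ccng1 at 684, 555 and 528 CPM and Inka2 at 12.8, 15.1 and 15.2 CPM in H2BdIEC replicates A, B and C. The H2BdIEC organoids also differed in sex-linked genes. Xist, which silences an X chromosome in female cells, averaged 892 ± 101 CPM in H2Bp53dIEC, 979 ± 299 CPM in controls and 4.50 ± 6.56 CPM in H2BdIEC. The Y-linked Eif2s3y averaged 0.0686 ± 0.0723, 0.139 ± 0.191 and 111 ± 24.8 CPM. The part of sex in the differences from H2BdIEC was not tested. H2Bp53dIEC and control libraries were alike in having Xist high and Eif2s3y near 0.

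Promoters of 3 p53 targets that fell are printed here to show where letters of the p53 half-site lie. The sequences are from RefSeq on GRCm38.p6, cover 250 bases before to 50 after a start, and carry half-site matches in capitals. The half-site was searched by name on both strands, and it reads the same on either. The windows are chr17:29090729-29091028, plus strand, for Cdkn1a, chr7:45466849-45467148, minus strand, for Bax, and chr11:40755237-40755536, minus strand, for Ccng1.
Cdkn1a: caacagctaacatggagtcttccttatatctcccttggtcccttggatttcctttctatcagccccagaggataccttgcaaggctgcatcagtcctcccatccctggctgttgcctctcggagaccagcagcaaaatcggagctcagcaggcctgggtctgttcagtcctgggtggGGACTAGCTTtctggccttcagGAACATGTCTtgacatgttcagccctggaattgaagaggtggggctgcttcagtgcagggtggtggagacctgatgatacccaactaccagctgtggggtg
Bax: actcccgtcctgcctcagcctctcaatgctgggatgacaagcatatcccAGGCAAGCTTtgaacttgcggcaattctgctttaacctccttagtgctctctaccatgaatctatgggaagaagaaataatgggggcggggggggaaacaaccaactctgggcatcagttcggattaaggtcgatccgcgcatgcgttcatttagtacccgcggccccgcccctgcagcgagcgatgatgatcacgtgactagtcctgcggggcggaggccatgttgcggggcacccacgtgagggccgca
Ccng1: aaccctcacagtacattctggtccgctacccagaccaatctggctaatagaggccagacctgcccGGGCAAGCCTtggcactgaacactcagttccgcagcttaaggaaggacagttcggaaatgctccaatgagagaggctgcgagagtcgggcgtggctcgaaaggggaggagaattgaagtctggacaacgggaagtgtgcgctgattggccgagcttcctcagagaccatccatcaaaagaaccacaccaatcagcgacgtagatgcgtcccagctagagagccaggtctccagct
Cdkn1a had 2 half-sites in this window, within 13 bases of each other, and another of its start sites had none. A window with a half-site was found for 7 of 12 arrest targets, 3 of 9 death targets and 4 of 21 stress targets that were tested and matched to the table, against 9.55% of 27025 genes. Among members called lower it was found for 4 of 7, 3 of 6 and 3 of 12. A full site, 2 half-sites at most 13 bases apart, was found for 1 of 12, 0 of 9 and 0 of 21 tested members. All 3 printed promoters are ones with a match. A match is a run of letters and not a bound site.

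Interferon-stimulated genes were higher in H2Bp53dIEC organoids. These genes are switched on by STAT and IRF factors after type I, II or III interferon, and DNA or RNA in the cytosol can start that signal through cGAS and STING or through MAVS. Of 44 listed genes, 38 passed the filter on low counts, and of these 28 rose and 0 fell (16.7% of all genes rose and 16.6% fell). The median log2 fold change of the 38 was 1.26, and 12 rose by more than 2-fold. The 6 below the filter are Mx1, Oas2, Gbp2, Gbp3, Iigp1 and Tgtp1, for which no change can be stated.

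Rsad2, which encodes the antiviral enzyme viperin, stood at 10.9, 11.5 and 11.5 CPM in H2Bp53dIEC and 1.08, 1.34 and 1.37 CPM in controls (3.15 ± 0.20, edgeR adjusted p = 5.26e-07). The H2BdIEC libraries held 1.06, 1.14 and 0.395 CPM, within or below the range of controls. Isg15, a ubiquitin-like modifier gene, stood at 10.1, 10.5 and 9.15 against 1.38, 2.64 and 3.28 CPM (2.02 ± 0.21, edgeR adjusted p = 2.74e-05). Cxcl10, a chemokine that draws T cells, went from 0.781 ± 0.254 to 4.67 ± 0.220 CPM (2.58 ± 0.22), and Oas3, a sensor of double-stranded RNA, from 1.0 ± 0.307 to 5.25 ± 0.358 CPM (2.37 ± 0.22). Igtp, an interferon-inducible GTPase gene, stood at 10.9, 12.6 and 12.1 against 3.06, 3.36 and 2.86 CPM (1.93 ± 0.20). For each of these 5 genes every H2Bp53dIEC library lay above every control, and the levels were low. Groups lay apart, in either direction, for 54.4% of all genes tested.

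Xaf1, a proapoptotic interferon target, rose the most: 18.2, 16.4 and 17.3 CPM against 0.480, 1.44 and 1.61 CPM (3.85 ± 0.30, edgeR adjusted p = 2.09e-06). It lies 2.71 Mb from Trp53, and without it 27 of 37 members rose. Of the factors that carry the interferon signal, Irf9 rose (log2 0.85 ± 0.16), while Stat2 (-0.01 ± 0.09) and Irf7 (0.62 ± 0.28) missed the test. Irf7 was called higher without control replicate B. These 3 genes were named after their values were seen. Against H2BdIEC organoids 31 of the 38 were called higher in H2Bp53dIEC and 1 lower, Ifi27l2b, also named for its value. Reads of the Ifit, Oas and Igtp families can be shared with near-identical copies, and how the counting treated such reads is not given in the sources used here.

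Promoters of Rsad2 and Isg15 are printed with each match to GAAANNGAAA, the core of the interferon response element on either strand, in capitals. The windows are chr12:26456403-26456702, minus strand, for Rsad2, and chr4:156200769-156201068, minus strand, for Isg15.
Rsad2: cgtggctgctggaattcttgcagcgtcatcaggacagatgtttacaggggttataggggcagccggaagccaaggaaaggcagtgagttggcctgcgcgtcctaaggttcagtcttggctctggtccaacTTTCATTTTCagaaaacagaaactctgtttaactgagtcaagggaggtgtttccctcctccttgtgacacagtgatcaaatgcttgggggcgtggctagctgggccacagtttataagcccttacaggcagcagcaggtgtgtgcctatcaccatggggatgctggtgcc
Isg15: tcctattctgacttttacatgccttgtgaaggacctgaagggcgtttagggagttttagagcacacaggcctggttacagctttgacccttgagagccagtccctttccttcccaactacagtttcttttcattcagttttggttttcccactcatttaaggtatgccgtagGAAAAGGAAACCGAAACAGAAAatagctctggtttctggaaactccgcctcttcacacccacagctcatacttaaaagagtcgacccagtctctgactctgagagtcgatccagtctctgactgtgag
Isg15 had 3 overlapping matches in its window and Rsad2 had 1. The motif was found for 18 of the 30 tested members that matched the table (60.0%), 16 of them among the 23 that rose, and for 3.99% of 27025 genes.

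Sensors of nucleic acids moved in both directions: of 13 tested, 6 rose and 3 fell, against 16.7% and 16.6% of all genes. Aim2, a DNA sensor of the inflammasome, stood at 11.6, 13.1 and 13.3 against 5.53, 4.12 and 3.63 CPM (1.52 ± 0.19, edgeR adjusted p = 8.14e-05). Cgas, the DNA sensor that makes cyclic GMP-AMP, and Sting1, the receptor for it, rose by log2 0.54 ± 0.09 and 0.82 ± 0.16, the latter at a low level (5.29, 5.97 and 4.61 against 3.06, 2.93 and 3.04 CPM). Adar, which edits double-stranded RNA and has an interferon-driven form, rose by log2 0.55 ± 0.07. Mavs, the adaptor of RNA sensing, stood at 78.0, 75.6 and 73.4 against 102, 109.6 and 109 CPM (-0.50 ± 0.06), and the kinase gene Ikbke (-0.51 ± 0.10) and the factor gene Irf3 (-0.42 ± 0.09) fell with it. Ifih1 and Rigi, the cytosolic RNA helicases, missed the test (log2 0.29 ± 0.14 and 0.45 ± 0.19, named after their values were seen, as was Irf3). Both were called higher in a fit to the 6 libraries alone and without H2BdIEC replicate A.

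Antigen presentation genes rose in part. Of 17 tested MHC class I genes 5 rose and 0 fell, against 16.7% and 16.6% of all genes, with a median of 0.14. They were the immunoproteasome gene Psmb8 (11.6 ± 0.474 against 6.46 ± 0.991 CPM, log2 0.84 ± 0.13), H2-Q4 (0.52 ± 0.09), the class I transactivator Nlrc5 (1.17, 1.05 and 1.59 against 0.0601, 0.240 and 0.298 CPM, log2 2.58 ± 0.53) and the peptide transporters Tap2 (0.49 ± 0.11) and Tap1 (0.30 ± 0.11). H2-D1, a classical class I gene, stood at 269.7 ± 5.20 against 234 ± 23.5 CPM (0.20 ± 0.08, edgeR adjusted p = 0.0614) and was not called, a gene named after its value was seen. It was called higher with upper-quartile scaling, in a fit to the 6 libraries alone, without control replicate C and without H2BdIEC replicate A. The count of 5 became 8 with upper-quartile scaling, in a fit to the 6 libraries alone and without H2BdIEC replicate A. Nlrc5, among the 5, did not pass the filter on low counts through the controls, all at 0.298 CPM or less. Of 6 tested class II genes 4 rose, among them the invariant chain Cd74 from 0.554 ± 0.204 to 1.98 ± 0.219 CPM. The count covers only genes that passed the filter, which a low gene can do through the group where it is high. That count was 1 to 3 in the 6 fits without 1 library each, and 2 by the DESeq2 test, with no filter on low counts and with a filter of 1 CPM in 3 libraries.

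**Figure D2:**
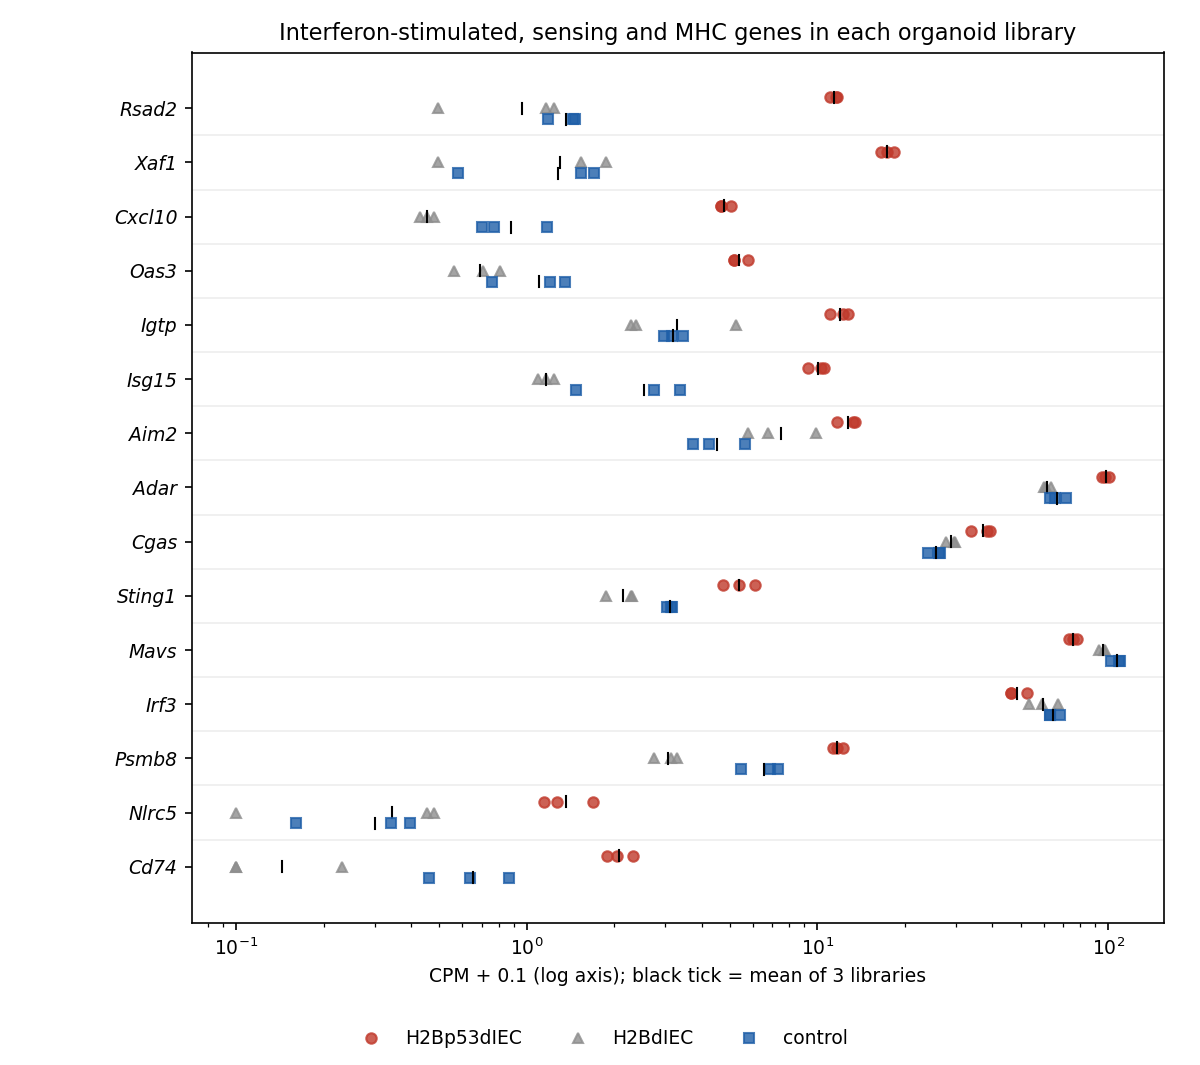
CPM plus 0.1 on a log axis of 6 interferon-stimulated genes, 6 sensing genes and 3 antigen presentation genes in each organoid library, with a black tick at the group mean. The 6 interferon-stimulated genes lie higher in all 3 H2Bp53dIEC libraries than in any control or H2BdIEC library, and Mavs and Irf3 lie lower.

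The hypoxia and glycolysis list fell as a whole: all 21 genes listed passed the filter and all 21 were called lower, against 16.6% of all genes. The members were chosen with earlier results of these data known, so this count is not an independent test. Its median log2 fold change was -1.11, and 7 fell by more than 2-fold. These genes are targets of hypoxia-inducible factor, which rises when oxygen is scarce, and many encode enzymes of glycolysis. Pfkp, the platelet form of phosphofructokinase, stood at 221, 211 and 208 CPM in H2Bp53dIEC and 617, 627 and 561 CPM in controls (-1.5 ± 0.07, edgeR adjusted p = 1.02e-07). Egln3, an oxygen-sensing prolyl hydroxylase gene, stood at 139, 148 and 144 against 519, 650.3 and 521 CPM (-1.97 ± 0.10, edgeR adjusted p = 1.02e-07). Adm, the gene of the vasodilator adrenomedullin, fell to 7.32, 8.5 and 6.99 CPM from 37.5, 43.5 and 36.6 CPM (-2.36 ± 0.12). For these 3 genes no H2Bp53dIEC library reached the lowest control, where groups lay apart for 54.4% of all genes tested. Ankrd37, Pfkfb3, a regulator of glycolytic flux, and Ndrg1, a stress-induced differentiation gene, fell by 1.92, 1.67 and 1.25 on the log2 scale. The H2BdIEC mean lay between the other groups for Pfkp (483 ± 19.3 CPM), Egln3 (441 ± 31.4 CPM) and Adm (20.2 ± 1.88 CPM), and 17 of the 21 genes were lower in H2Bp53dIEC than in H2BdIEC. The labels give no oxygen level, medium, density or day of harvest for the organoids, so a part of culture conditions in these values was not tested.

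Promoters of 2 genes of this list are printed with ACGTG, the core of the hypoxia response element on either strand, in capitals. The windows are chr12:54203825-54204124, minus strand, for Egln3, and chr8:45999801-46000100, minus strand, for Ankrd37.
Egln3: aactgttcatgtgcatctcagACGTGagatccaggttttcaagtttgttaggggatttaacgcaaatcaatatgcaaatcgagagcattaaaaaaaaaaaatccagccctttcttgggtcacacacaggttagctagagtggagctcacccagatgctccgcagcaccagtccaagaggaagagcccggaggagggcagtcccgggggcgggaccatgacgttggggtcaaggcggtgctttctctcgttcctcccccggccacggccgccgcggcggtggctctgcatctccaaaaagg
Ankrd37: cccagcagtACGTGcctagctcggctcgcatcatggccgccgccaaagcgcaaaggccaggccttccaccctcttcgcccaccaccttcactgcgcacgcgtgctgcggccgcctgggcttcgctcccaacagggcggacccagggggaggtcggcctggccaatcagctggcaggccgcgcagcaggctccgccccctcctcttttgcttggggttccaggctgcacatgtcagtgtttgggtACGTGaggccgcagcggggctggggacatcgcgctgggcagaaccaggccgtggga
The core was found for 14 of 20 members that matched the table (70.0%) and for 21.8% of 27025 genes. The 5 letters are also part of the E-box CACGTG, which other factors bind.

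Genes of the amino acid and unfolded protein responses fell beside the hypoxia genes. The factor ATF4 drives many of them when amino acids run short or misfolded protein gathers. Of 17 tested, 11 fell and 0 rose, with a median of -0.58. Chac1, a glutathione-degrading enzyme gene, stood at 10.1, 9.42 and 10.2 CPM against 49.7, 46.4 and 60.5 CPM (-2.40 ± 0.15, edgeR adjusted p = 5.23e-07). Nupr1 stood at 111, 118 and 119.9 against 299.7, 272 and 249.6 CPM (-1.23 ± 0.08), and Asns, asparagine synthetase, at 224, 221 and 224 against 415, 404 and 459 CPM (-0.93 ± 0.07). Ddit3, the gene of CHOP, and Atf3 fell by 1.56 and 1.45 on the log2 scale. Sesn2, which fell by 1.36, is counted under p53 targets as well.

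**Figure D3:**
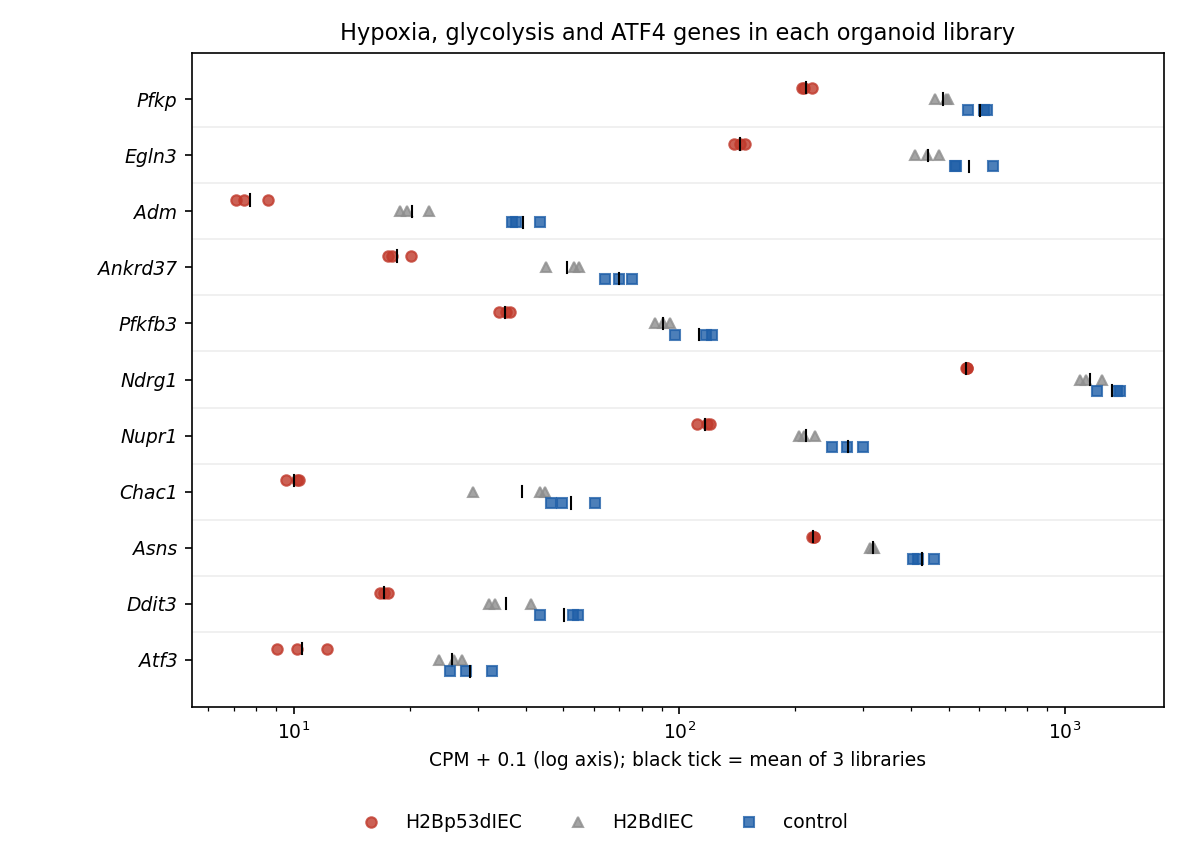
CPM plus 0.1 on a log axis of 6 hypoxia and glycolysis genes and 5 genes of the ATF4 and unfolded protein list in each organoid library, with a black tick at the group mean. All 3 H2Bp53dIEC libraries lie below all control and H2BdIEC libraries for each gene shown.

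Stem cell genes and Wnt targets were higher in H2Bp53dIEC organoids. Wnt signals from Paneth cells and the stroma keep crypt base stem cells dividing in the intestine. Of 20 tested stem cell markers 14 rose and 0 fell (median 0.46), and of 21 tested Wnt targets 13 rose and 1 fell (median 0.45). The lists share Axin2, Cd44, Ascl2 and other genes. Olfm4, a secreted marker of crypt base stem cells, stood at 861, 866 and 912 CPM against 494, 439 and 357 CPM (1.03 ± 0.10, edgeR adjusted p = 1.17e-05). Axin2, a feedback inhibitor of Wnt, stood at 239, 232 and 220.3 against 139.8, 137 and 135 CPM (0.75 ± 0.10). Msi1, Cd44, Bmi1 and Cdca7 rose by 0.83, 0.84, 0.66 and 0.63 on the log2 scale. Lgr5, the receptor that marks these stem cells, stood at 427, 422 and 427 against 409, 370.4 and 313 CPM and was not called (0.22 ± 0.09, edgeR adjusted p = 0.0816). It was called higher with upper-quartile scaling, with no filter on low counts, in a fit to the 6 libraries alone and without control replicate A. Among Wnt targets Apcdd1 and Prox1 rose by more than 2-fold, from 5.04 ± 1.30 to 15.9 ± 1.09 CPM and from 2.95 ± 0.462 to 8.54 ± 0.719 CPM. Mmp7, a matrix protease that Paneth cells also make, was the member that fell (-0.79 ± 0.10). A bulk library cannot tell a larger share of stem cells from more RNA of these genes per cell, here or in the cell type lists that follow.

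Replication genes rose together by small amounts. Of 28 tested S phase genes 23 rose and 0 fell (median 0.38), none by more than 2-fold. Mcm4, part of the replicative helicase, stood at 154, 148 and 154 against 107, 103 and 106 CPM (0.53 ± 0.07, edgeR adjusted p = 0.000127). Rfc3, Mcm10, Gins1, Rrm1 and Gins2 rose by 0.62, 0.47, 0.64, 0.37 and 0.53 on the log2 scale. Pcna, the sliding clamp, named after its value was seen, did not pass the test at 158 ± 5.72 against 164 ± 10.2 CPM. Of 28 genes of G2 and mitosis 12 rose and 1 fell. The gene that fell was Pttg1, the gene of securin, at 12.5, 15.6 and 13.8 against 33.9, 37.5 and 35.9 CPM (-1.36 ± 0.11), and its level in H2BdIEC was also low at 9.66 ± 1.51 CPM. The count of 12 was 7 without H2Bp53dIEC replicate 2, without H2Bp53dIEC replicate 3 and without control replicate B.

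Of the DNA damage and repair genes, 12 of 23 tested rose and 2 fell (median 0.40). Blm, a helicase gene of homologous recombination, stood at 47.0, 48.6 and 48.8 against 34.2, 31.4 and 28.6 CPM (0.61 ± 0.12). Fanca, Brca1 and Rad54l rose by 0.53, 0.54 and 0.52 on the log2 scale. Among 14 cyclins, cyclin-dependent kinases and their inhibitors, 4 rose and 6 fell, against 16.7% and 16.6% of all genes. Besides Cdkn1a, the inhibitor genes Cdkn2b (9.11 ± 0.895 against 18.7 ± 3.04 CPM, log2 -1.04 ± 0.14) and Cdkn2d (-0.87 ± 0.11) and the cyclin genes Ccnd3 (-0.66 ± 0.09) and Ccnd2 (-0.49 ± 0.07) fell.

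Markers of differentiated cells changed gene by gene. Over all genes 16.7% were called higher and 16.6% lower, and the enteroendocrine counts lie near these shares. Among enteroendocrine genes 4 of 19 rose and 3 fell, and 6 fell in a fit to the 6 libraries alone or without H2BdIEC replicate A and 5 with no filter on low counts. Neurog3, the factor that sets endocrine progenitors, stood at 43.1, 42.2 and 47.8 CPM against 16.3, 16.5 and 15.7 CPM (1.45 ± 0.12, edgeR adjusted p = 3.59e-06), while Gcg, the proglucagon gene of L cells, stood at 45.0, 46.7 and 43.1 against 108, 133 and 105 CPM (-1.36 ± 0.12). Tph1 and Cpe rose (0.52 ± 0.10 and 0.38 ± 0.09) and Reg4 fell (-0.51 ± 0.06). Of 14 tested Paneth genes 3 rose and 6 fell. Pla2g2a, a secreted antibacterial phospholipase gene, rose from 1.6 ± 0.247 to 9.99 ± 1.14 CPM, and Ang4 and Defa24, antimicrobial products, fell (log2 -1.03 ± 0.10 and -0.85 ± 0.11). Defensin genes are near-identical copies, so single members are uncertain.

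Of 18 goblet genes 6 rose and 3 fell, against 16.7% and 16.6% of all genes. With no filter on low counts 5 goblet genes fell. Zg16, a mucus lectin gene, stood at 18.2, 22.0 and 21.6 against 8.11, 6.43 and 6.55 CPM (1.56 ± 0.12), and Spink4 fell (-0.84 ± 0.11). Of 10 tuft cell genes 4 fell and 0 rose at low levels, such as Trpm5, a taste channel gene (2.89 ± 0.410 against 4.87 ± 0.119 CPM), and Dclk1 (2.92 ± 0.455 against 4.86 ± 0.145 CPM). That count was 2 by the DESeq2 test and without any 1 of H2Bp53dIEC replicates 1, 2 and 3 or control replicates A and B. Of 27 enterocyte genes 8 rose and 1 fell. Apoa4, an apolipoprotein gene, stood at 549, 594 and 610.1 against 171, 329 and 303 CPM (1.13 ± 0.22, edgeR adjusted p = 0.00320), with control A below the other controls. Slc2a5, the fructose transporter, and Alpi, intestinal alkaline phosphatase, rose by log2 1.15 ± 0.14 and 0.60 ± 0.12. The enterocyte count was 5 without H2Bp53dIEC replicate 3 and 14 with no filter on low counts.

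**Figure D4:**
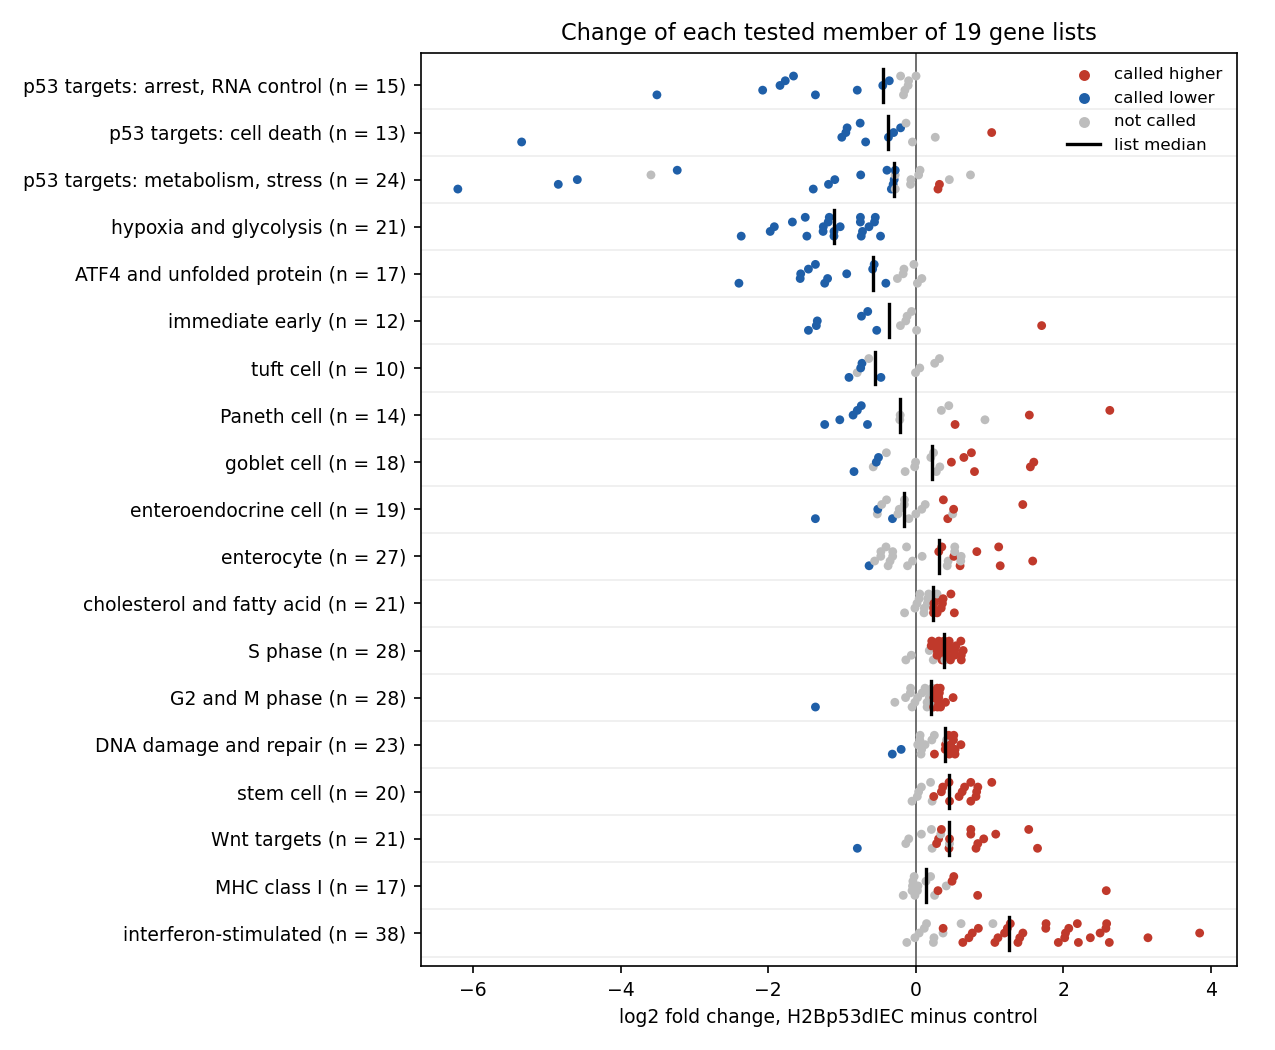
Log2 fold change, H2Bp53dIEC minus control, of each tested member of 19 gene lists, coloured by the edgeR call, with a black bar at the list median. The interferon-stimulated list sits to the right with a median of 1.26, the hypoxia and glycolysis list to the left with a median of -1.11, and cell type lists lie on both sides of 0.

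The protein-coding genes with the largest changes at moderate expression lay partly outside these lists. Sfrp5, a secreted Wnt antagonist gene, rose most among called genes averaging 3 or more in log2 CPM: 27.9, 22.7 and 24.6 CPM against 3.60, 3.50 and 3.81 CPM (2.78 ± 0.17, edgeR adjusted p = 3.51e-07). Reg3b, a bactericidal lectin gene, rose from 4.67 ± 1.01 to 27.5 ± 3.37 CPM, Cyp2b10, a drug-metabolizing enzyme gene, from 76.9 ± 21.9 to 316 ± 4.95 CPM and Fgfr4, a growth factor receptor gene, from 5.19 ± 0.820 to 20.2 ± 1.72 CPM. Sult6b2, Arnt2, Zfp618, Rassf5, Ccdc3, S100g, Reg1 and Myo5a completed the 12 largest increases, from log2 2.02 to 1.74. Reg1 was uneven among controls (10.03, 28.3 and 17.4 CPM) and lost its call without H2Bp53dIEC replicate 1 or without control replicate C. Sult6b2 and Reg1 were the 2 of these 12 not called against H2BdIEC organoids.

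Among the 12 largest decreases, Grb10, an imprinted adaptor gene that restrains insulin and IGF signalling, stood at 3.88, 3.88 and 3.10 CPM against 31.3, 26.1 and 30.8 CPM (-3.01 ± 0.14, edgeR adjusted p = 1.02e-07). Areg, the gene of the EGF receptor ligand amphiregulin, stood at 31.2, 33.2 and 29.9 against 164, 203 and 167 CPM (-2.50 ± 0.14, edgeR adjusted p = 1.65e-07). Afp, the fetal serum protein alpha-fetoprotein, fell from 45.9 ± 5.21 to 9.29 ± 1.03 CPM, while H2BdIEC organoids held 105 ± 7.09 CPM. Emid1 stood at 5.06 ± 0.599 CPM against 22.9 ± 2.70 CPM, with H2BdIEC close to the former at 7.19 ± 1.23 CPM. Nrn1, Mab21l3, Neu3 and Stbd1 fell by 2.40, 2.31, 2.22 and 2.15 on the log2 scale. The other 4 of the 12 were Trp53, Gdf15, Chac1 and Adm. All 12 were called lower against H2BdIEC as well.

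Genes near Trp53 were then listed, a choice made after the values were seen. Of 138 other tested genes within 5 Mb of Trp53, 33.3% were called, as over all genes, but 8 passed the test against 2-fold, or 5.8% against 1.48% of all genes. Within 5 Mb of Rnaseh2b, 1 of 71 genes did (1.41%), the Wnt receptor gene Fzd3. The 8 near Trp53 moved in opposite directions. Xaf1, Sat2, Pimreg and Itgae were higher, and Nlrp1b, Kctd11, Tnfsf13os and Alox12b were lower. Nlrp1b, an inflammasome sensor gene 1.56 Mb from Trp53, stood at 0.0615, 0 and 0 CPM in H2Bp53dIEC, 4.50, 5.99 and 4.05 CPM in controls and 6.57, 3.86 and 3.62 CPM in H2BdIEC. Itgae, the integrin chain CD103, 3.50 Mb away, stood at 1.97, 1.35 and 1.66 CPM against 0.0601, 0.0480 and 0 CPM (5.21 ± 0.57, edgeR adjusted p = 3.72e-05). Itgae passed the filter on low counts through the H2Bp53dIEC libraries alone, so its direction was set by that filter. It is nevertheless counted among the 8. Sat2, 0.0302 Mb away, stood at 6.34, 5.23 and 4.68 against 0.480, 1.01 and 0.536 CPM (2.95 ± 0.25). Chromosome 11 as a whole held 34 such genes among 1217 tested (2.79%), the highest share of the 20 chromosomes, and the 8 neighbours are among these 34. The cause was not tested. Over the 20 chromosomes the median log2 fold change ran from -0.06 to 0.10, so no chromosome moved as a whole beyond that. Tnfsf13os is an antisense transcript, and whether strand was used in counting is not given in the sources used here.

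**Figure D5:**
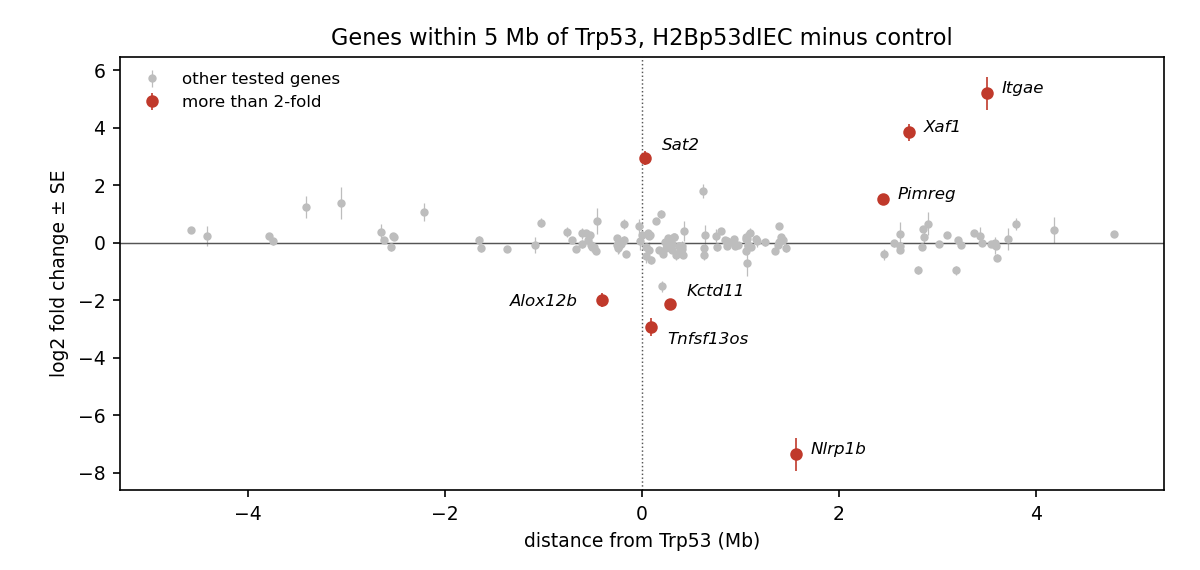
Log2 fold change ± SE, H2Bp53dIEC minus control, of the 138 tested genes within 5 Mb of Trp53, by distance from Trp53 in Mb. The 8 genes past the test against 2-fold are named, 4 above and 4 below 0, and most other genes lie near 0.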

How the data were processed

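RNA of 9 organoid libraries (3 H2Bp53dIEC, 3 control, 3 H2BdIEC) was used, and groups followed titles and genotype labels. The deposited values are raw counts per Ensembl gene in whole numbers, with no normalization by the authors. Per the submitters' processing notes the reads went through Trimmomatic 0.36, cutadapt 1.5 and 1.9, TopHat2 2.0.14 and HTSeq on GRCm38, with settings and annotation not given in the sources used here. Per the labels' protocols, libraries were made from 500 ng RNA with a stranded mRNA kit. Symbols came from GENCODE M21, which matched 52403 of 52550 identifiers; the rest held 0.0075% of counts.

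All 9 libraries were fitted together in edgeR 4.0.16 (R 4.3.3) with filterByExpr, TMM scaling, the robust quasi-likelihood F test with a coefficient for each group. Benjamini-Hochberg adjustment covered 15701 genes, and an adjusted p under 0.05 was a call. glmTreat against 2-fold gave a second call. Values after ± are SD for CPM (n = 3) and SE for log2 fold changes. 0 pairs of replicate libraries were identical. The fit was tested on simulated data. The compared libraries held 13549741 to 21386586 counts, with 3 libraries a group. The spread used in the test is shared with the H2BdIEC libraries, of which replicate A differed most from the others (chi-square per degree of freedom 13.9 and 17.8).

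Genes were named by rule: Trp53, Rnaseh2b, the 12 largest increases and 12 largest decreases of protein-coding genes that were called, averaged 3 or more in log2 CPM and had separate groups (unnamed models, Xist and Y genes left out), and up to 6 members of a list by smallest p, or any member for RNase H2 subunits, p53 regulators and cell type markers. Outside this rule 24 tested genes were named after their values were seen: Ano3, Cd80, Dapk1, Fas, Fosl1, H2-D1, Ifi27l2b, Ifih1, Irf3, Irf7, Irf9, Pcna, Rigi, Rnaseh1, Stat2, Trp53cor1, Fzd3 and 7 neighbours of Trp53 other than Xaf1. The 6 interferon-stimulated genes below the filter were named to account for the whole list. Alternatives were run for all of these tested genes as well. The 42 lists, the members and the rule were chosen with earlier results of these data known. Alternatives were DESeq2 1.42.0 size factors and test, scaling by upper quartiles, dropping the low-count filter, 1 CPM in 3 libraries, robust=FALSE, only 6 libraries, and each of the 6 compared libraries left out. Leaving out H2BdIEC replicate A was added after seeing the data. The 20 crypt and tissue libraries were left out, as they belong to other comparisons. Figures used matplotlib 3.10.9 in Python 3.11.15.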

Additional observations from a re-analysis of the deposited data

How the results depend on the processing

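Calls across all genes were 1834 to 2300 higher and 1788 to 2347 lower with each of the 6 compared libraries left out in turn, against 2621 and 2609. They were 3513 and 3599 when only these 6 libraries were fitted, 2971 and 2328 with upper-quartile factors, and 2423 and 2524 with the DESeq2 test. Changes past 2-fold were 90 to 111 higher and 71 to 95 lower with 1 library left out. Without H2BdIEC replicate A, the shallowest library, 3594 and 3709 were called, and 183 and 118 past 2-fold, all within 1.5 times the reported counts. Of the 5230 calls, DESeq2 made 4783 in the same direction. The median log2 fold change of all genes was -0.0044 as reported and ran from -0.018 with no filter on low counts to 0.0257 with upper-quartile factors. Of 219 named genes that were called, 32 lost the call in at least 1 setting, in 114 of 3063 values. Of all 261 named genes, 0 changed sign while called in the reported fit or in the alternative. A change of sign in a gene called in neither was not counted. Of 603 list counts under alternatives, 45 moved by more than 1.5 times. They concern lists with few calls or small changes, and the cause was not tested. No paired analysis was possible because H2Bp53dIEC replicates carry numbers and control replicates letters, with no shared label. In genes under about 1 CPM, such as Ano3, Nlrc5 or Itgae, a few counts set the value. Itgae, like Cdkn2a, passed the filter on low counts through the H2Bp53dIEC libraries alone. Nlrc5 did not pass it through the controls.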

Other observations

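Ligands of the EGF receptor, which drives growth of crypt cells, were mostly lower: of 10 tested genes of the family 5 fell and 1 rose. Over all genes 16.6% fell and 16.7% rose. Besides Areg, Ereg (epiregulin) stood at 0.554, 0.431 and 0.432 CPM in H2Bp53dIEC against 5.46, 9.83 and 9.59 in controls (-4.11 ± 0.34, edgeR adjusted p = 4.07e-06). Btc, Hbegf and Tgfa fell by 0.72, 0.72 and 0.30 on the log2 scale, and Tgfa lost the call without H2Bp53dIEC replicate 1 or control replicate B. Egf rose from 0.615 ± 0.144 to 1.39 ± 0.299 CPM, a call lost without H2Bp53dIEC replicate 2. Immediate early genes, which growth factor signals induce within minutes, fell in 6 of 12 cases and rose in 1. Junb stood at 44.6, 44.0 and 42.0 against 108, 117 and 108 CPM (-1.35 ± 0.14), Ier3 and Egr1 fell by 1.33 and 0.65, and Fosl1 was the member that rose (1.71 ± 0.45), named after its value was seen and not called without control replicate B. The fetal and YAP list went both ways, with 4 of 16 higher and 7 lower: Anxa1 rose from 4.02 ± 0.728 to 12.5 ± 0.807 CPM, while Areg and Ereg are members too.

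All 4 of the 15 gastric genes that passed the filter rose, at low levels. Pgc, the pepsinogen C gene, stood at 3.44, 2.46 and 2.38 against 0.180, 0.288 and 0.298 CPM (3.39 ± 0.36), and Gkn3 at 8.37, 8.19 and 7.93 against 1.20, 1.97 and 2.74 CPM (2.05 ± 0.23). The count covers only genes that passed the filter, some of them through the group where they are high. Pdx1, a duodenal factor, stood at 58.8 ± 0.659 against 32.3 ± 5.24 CPM (0.86 ± 0.11), and of 13 genes of the proximal gut 5 rose and 2 fell, with 3 rising without any 1 of the H2Bp53dIEC replicates or without control replicate C. Distal genes counted 1 higher and 1 lower of 11, and colon genes 2 and 2 of 7, against 16.7% and 16.6% of all genes.

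Of 20 targets of the oxidative stress factor NRF2, 7 fell and 2 rose, among them Hmox1, heme oxygenase, at 9.35, 8.99 and 9.08 against 23, 24.2 and 19.9 CPM (-1.29 ± 0.10). Cholesterol and fatty acid genes rose in 10 of 21 cases and fell in 0. The count of 10 was 6 without H2Bp53dIEC replicate 2 and 5 without control replicate B. Of 12 Notch and fate genes 5 rose and 1 fell, led by the ligand gene Dll1 (45.3 ± 1.16 against 25.6 ± 1.04 CPM, log2 0.82 ± 0.09), and 3 rose without H2Bp53dIEC replicate 1 or 3 and 2 without control replicate B. BMP and TGF-beta genes counted 0 higher and 5 lower of 13, or 3 lower without control replicate B and 8 without H2BdIEC replicate A. Inflammation genes counted 4 higher and 3 lower of 17: Icam1 and Tnf rose from 1.48 ± 0.167 to 5.75 ± 0.841 and from 0.610 ± 0.0922 to 2.14 ± 0.530 CPM, and Tnfaip3, a brake on NF-kappaB, fell from 31.2 ± 3.44 to 12.7 ± 0.251 CPM. Adhesion genes counted 5 higher and 3 lower of 19, and 3 higher without any 1 of the H2Bp53dIEC replicates or without control replicate B. Counts were 2 higher and 3 lower of 10 general epithelial markers, and 0 and 0 of 7 mitochondrially encoded genes by edgeR, where 0 of the 7 had an unadjusted p under 0.05 and 0 were called by DESeq2. Over all genes 16.7% were called higher and 16.6% lower. The inflammation, adhesion and epithelial marker counts are not far from these shares.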
